A study of Mus musculus with 11 samples.

Results

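Chromatin accessibility in the autophagy-low haematopoietic stem cells (HSCs) of old mice was compared with that in HSCs of young mice. All rows of the deposited comparison of old ATlo with young HSCs were taken, 94410 of the 94410 accessible regions (peaks) of the series, so no measured value chose them. They carried 20810 genes as the gene with the nearest start site, of which 20791 had a symbol. The comparison rested on 3 old ATlo libraries, labelled GFPhi, and 5 young libraries, labelled unfractionated, out of 11 libraries. The other 3 libraries were old AThi HSCs, labelled GFPlo and paired with the ATlo libraries. Every library came from purified bone marrow HSCs isolated at steady state from mice of the genotype Gfplc3/Gfplc3, so the controls carried the reporter too. For age in numbers, sex and the number of animals in a library, nothing is given in the sources used here. Isolation and transposition took 2 days, with no day named for a sample. Age, the sort on GFP and the day of isolation therefore cannot be told apart in old ATlo against young HSCs, and the p-values reflect the spread among these libraries.

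HSCs sustain blood formation for life, and with age they accumulate in the marrow while their output shifts towards platelets and myeloid cells. LC3 coats the membrane of the forming autophagosome and is partly degraded in the lysosome with the cargo, so that GFP fused to LC3 is lost in cells with autophagic flux and retained in cells without it. ATAC-seq marks open DNA with a transposase: active promoters, often rich in the dinucleotide CpG, give broad strong peaks, while enhancers give narrower peaks that differ more between cell types. A peak carries the name of the nearest gene, and the name does not measure transcription.

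The promoters of 4 genes show the DNA behind the pattern described below. Myo16 and Clca3a1 were more accessible in old ATlo HSCs, one rich and the other poor in CpG, and Cct8 and Mynn were less accessible. They were picked after their values were seen, among genes with 1 start in the sequence table whose length matched the authors' annotation. Each line gives 250 bases before to 50 bases after the start from RefSeq (GRCm38.p6), 5′ to 3′ on the strand of the gene, with every CpG in capitals. The places are chr8:10153661-10153960 (plus strand) for Myo16, chr3:144760928-144761227 (minus) for Clca3a1, chr16:87495820-87496119 (minus) for Cct8 and chr3:30601837-30602136 (plus) for Mynn.
Myo16: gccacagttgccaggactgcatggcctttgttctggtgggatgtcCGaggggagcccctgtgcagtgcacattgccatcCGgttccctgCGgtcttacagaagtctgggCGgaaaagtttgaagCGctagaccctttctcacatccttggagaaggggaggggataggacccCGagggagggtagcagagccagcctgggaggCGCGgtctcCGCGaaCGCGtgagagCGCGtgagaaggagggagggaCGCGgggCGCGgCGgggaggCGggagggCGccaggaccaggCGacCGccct
Clca3a1: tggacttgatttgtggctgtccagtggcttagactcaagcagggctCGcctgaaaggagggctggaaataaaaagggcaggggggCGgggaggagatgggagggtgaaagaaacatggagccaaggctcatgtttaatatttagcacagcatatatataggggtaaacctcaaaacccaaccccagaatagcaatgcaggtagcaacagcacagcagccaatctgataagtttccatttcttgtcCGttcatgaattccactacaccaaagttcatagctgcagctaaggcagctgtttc
Cct8: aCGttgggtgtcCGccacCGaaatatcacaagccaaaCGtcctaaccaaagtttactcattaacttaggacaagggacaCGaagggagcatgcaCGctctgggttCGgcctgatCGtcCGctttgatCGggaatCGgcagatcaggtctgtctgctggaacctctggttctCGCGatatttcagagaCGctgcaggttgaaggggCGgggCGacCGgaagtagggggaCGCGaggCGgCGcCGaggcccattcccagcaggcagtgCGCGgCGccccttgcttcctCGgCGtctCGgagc
Mynn: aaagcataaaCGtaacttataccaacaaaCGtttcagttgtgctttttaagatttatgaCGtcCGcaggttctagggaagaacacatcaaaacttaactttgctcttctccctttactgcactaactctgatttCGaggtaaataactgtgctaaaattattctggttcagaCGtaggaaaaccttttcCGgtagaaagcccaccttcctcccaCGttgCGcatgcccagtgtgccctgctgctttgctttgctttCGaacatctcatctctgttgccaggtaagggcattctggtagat
The Myo16 window, at the start of an unconventional myosin gene, held 23 CpG. That of Clca3a1, a chloride channel regulator known as an HSC ageing marker, held 3. The window of Cct8, a subunit of the TRiC chaperonin that folds actin and tubulin, held 28. It also held the ETS factor word CCGGAAGT, starting at base 214 of the window on the same strand. Mynn, a zinc finger gene, had 10 CpG.

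The deposited files held 0 columns of values per library, so values per sample cannot be shown. In their place stand levels implied for each group by the authors' mean normalised count over 11 libraries and both fold changes against young HSCs, given as normalised counts. The Myo16 promoter peak stood at 22.0 in young, 85.3 in old ATlo and 97.0 in old AThi HSCs. For the Clca3a1 promoter the levels were 41.3, 119 and 107. Old ATlo HSCs thus lay well above young HSCs at both promoters, and the old fractions lay close together. The Cct8 promoter stood at 248 in young, 143 in old ATlo and 128 in old AThi HSCs, and the Mynn peak over the start at 529, 327 and 328. In the authors' deposited table these 4 peaks had log2 changes, old ATlo minus young, of 1.96 (SE 0.25), 1.53 (SE 0.22), -0.79 (SE 0.17) and -0.69 (SE 0.15). All of them passed the authors' DESeq2 test, with adjusted p = 2.68e-12, 1.53e-09, 0.000188 and 0.000129 as listed in the authors' deposited table.

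Old ATlo HSCs had 6370 higher (6.75%) and 2351 lower peaks (2.49%) at a Benjamini-Hochberg adjusted p under 0.05 in the authors' DESeq2 test, or 9.24% in either direction. The peaks called in each direction were of different kinds. Beside the lower peaks, higher peaks were weaker, narrower and farther from start sites: their median implied level went from 22.0 in young to 53.2 in old ATlo HSCs, their median width was 605 bp and their median distance to a start site 23.4 kb. Over all peaks the median width was 547 bp and the median mean count 27.5, against 39.9 for higher and 169 for lower peaks. Lower peaks were strong, broad and at start sites, with a median implied level of 203 in young and 135 in old ATlo HSCs, a median width of 1049 bp and a median distance of 0.256 kb. Changes were larger upwards, since 714 of 6370 higher but 83 of 2351 lower calls were at least 4-fold. Weak peaks need larger changes to be called: over 5 equal groups of peaks by mean level, the median SE went from 0.54 in the weakest to 0.17 in the strongest. The part of level in this difference was not tested. Promoters, the peaks within 1 kb of a start, made up 16.3% of higher and 52.9% of lower calls.

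The balance of directions rests on the scaling. The 11089 promoter peaks in the top of 5 equal groups by mean level had a median log2 change of -0.22. Setting that median to 0 raised every log2 change by 0.22 and gave 11832 higher and 434 lower calls, or 96.5% higher in place of 73.0%. All 6370 higher calls passed again, which follows from raising every log2 change, and 430 of the lower ones did. Lower calls below are therefore lower on the authors' scaling, and named ones that passed on both scalings are said to have done so. Higher peaks named below all passed on both for that reason, which is no test of them.

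Promoters differed from every other class of peak on the authors' scaling. Of 18102 promoter peaks 1041 were higher and 1244 lower, so 45.6% of their calls were higher. In the other classes the share was 68.4% at promoter flanks (1 to 3 kb), 68.6% in 5′ UTRs, 77.6% in 3′ UTRs, 79.9% in exons, 84.1% in intergenic peaks, 84.3% in first introns and 84.4% in later introns. All 9 of 9 calls downstream of genes were higher. With the strong promoters set to 0 the promoter share became 96.2%, beside 96.5% over all peaks, so promoters no longer stood apart from the total. Promoters held 51.2% of the summed implied level in young and 47.3% in old ATlo HSCs. Within promoters the direction followed the level. From the weakest to the strongest of the 5 level groups, 62.5%, 74.0%, 87.3%, 87.6% and 29.1% of promoter calls were higher. The lower calls of the strongest group are thus what set promoters apart on the authors' scaling. Intergenic peaks of the strongest group also had fewer higher calls, at 58.4%. In the fourth level group, where 12.3% of promoters and 12.5% of intergenic peaks were higher, 17.8% of exon peaks were.

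**Figure D1:**
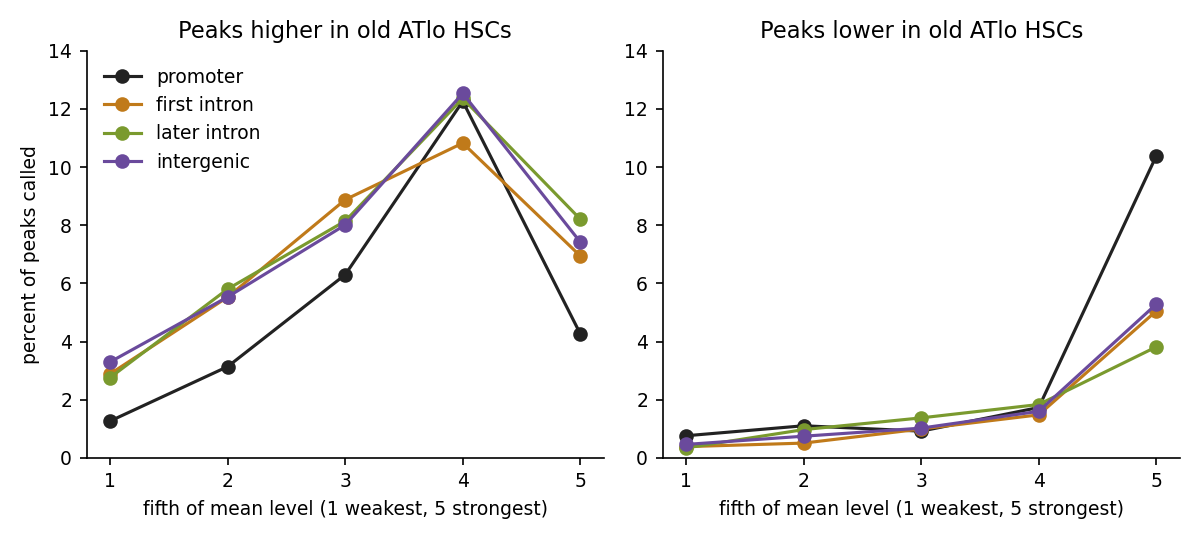
Percent of peaks called higher (left) and lower (right) in old ATlo than in young HSCs, against 5 equal groups of peaks by mean normalised count, with 1 line per peak class. Higher calls peak in the fourth group in all 4 classes, and lower calls climb in the strongest group, to 10.4% for promoters and 5.28% for intergenic peaks.

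The share of higher peaks grew with distance from genes. It was 5.75% within 1 kb of a start, 5.77% from 1 to 20 kb, 6.96% from 20 to 100 kb, 10.5% from 100 to 500 kb and 18.2% beyond 500 kb (100 of 549 peaks). The median log2 change climbed from -0.15 to 0.38 over the same bins. Level went the other way, from a median of 122 to 14.4 normalised counts, and the part of level in this gradient was not tested. With strong promoters at 0 the shares were 11%, 11%, 13.1%, 17.8% and 26.8%, a setting added after the data were seen.

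Among 9349 genes with a promoter peak and 1 start in the sequence table, 62.3% of the 15013 genes with a promoter peak, CpG content went with both directions. These were taken at each gene's strongest promoter peak. In the weakest of 3 equal groups by level, the share of promoters called higher was 7.80% with 0 to 9 CpG and 17.9% with 31 or more, while 0.649% of the latter were lower. In the strongest of the 3 groups the share called lower was 9.23% with 0 to 9 CpG and 21.2% with 31 or more, and 1.63% of the latter were higher. CpG-rich promoters were thus called at a higher rate at both ends of the level scale, in opposite directions. Level also differed within the groups. From 0 to 9 CpG to 31 or more, the median level went from 36.1 to 59.9 in the weakest group and from 276 to 317 in the strongest. The part of level in these CpG gradients was not tested. The median CpG count was 25 in 746 lower promoters, 19 in 539 higher promoters and 19 in 8064 promoters not called.

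**Figure D2:**
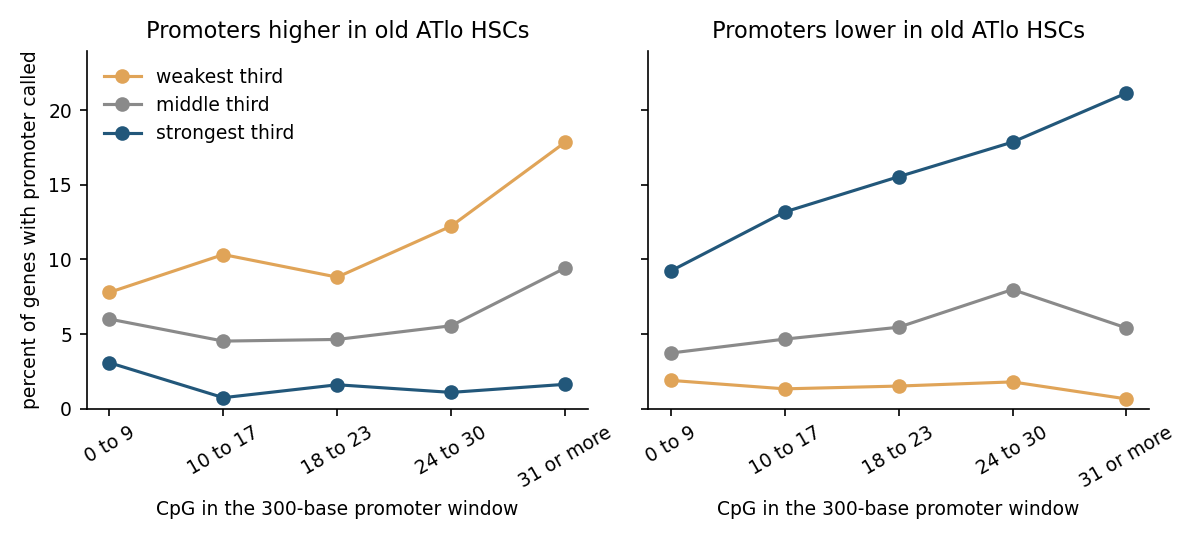
Percent of genes whose promoter was called higher (left) or lower (right) in old ATlo than in young HSCs, against the number of CpG in the 300-base window, with 1 line per level group. In the weakest group higher calls reach 17.9% at 31 or more CpG, and in the strongest group lower calls reach 21.2%.

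Letters that several families of factors are known to bind were counted on both strands of these windows, with no word contained in another. CCGGAAGT, bound by ETS factors, was in 8.04% of lower promoters, 6.87% of those not called and 1.48% of higher ones, against 3.89% of all windows in the sequence table. CCAAT, bound by NF-Y, was in 39.4%, 38.5% and 31.2% in the same order (37.4% of all windows), and GGGGCGGGG, bound by SP and KLF factors, in 26.3%, 21.1% and 21.9% (11.4%). TGANTCA, bound by AP-1, was in 4.02%, 5.08% and 6.86% (7.81%) and TATAAA, the core promoter word, in 6.30%, 7.73% and 8.91% (13.6%). CACGTG, the E-box, was in 9.65%, 10.2% and 6.68% (7.15%) and TGACGTCA, bound by CREB, in 1.88%, 3.19% and 2.60% (1.79%). AGATAA, bound by GATA factors, was in 5.09%, 6.81% and 4.64% (11.2%) and TGTGGT, bound by RUNX factors, in 12.2%, 13.1% and 11.3% (16.8%). Of these 9 the ETS word differed most in ratio between lower and higher promoters, and it was rare in the latter. Within the strongest level group, promoters with and without it had median log2 changes of -0.30 and -0.28, so there the word made little difference.

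A gene often had several called peaks. A higher call was carried by 4540 (21.8%) of the 20810 genes, a lower call by 2093 (10.1%) and both by 405. Among 1617 genes with 2 or more called peaks, 1052 had only higher calls, 160 only lower calls and 405 both. Of 1004 genes with a higher promoter, 305 (30.4%) also had a higher peak elsewhere and 35 (3.49%) a lower one. Of 1223 genes with a lower promoter, 157 (12.8%) had a higher peak elsewhere and 102 (8.34%) a lower one. Over all genes with a symbol, 5324 peaks outside promoters were higher and 1107 lower. Gains elsewhere thus outnumbered losses in both groups of genes, as they did among all peaks outside promoters. At genes with a lower promoter the surplus of gains was smaller than that among all these peaks, though genes and peaks are unlike units. At any position, promoters included, 21.8% of all genes had a higher and 10.1% a lower peak. The shares of all genes with a called peak outside promoters were not computed, so neither group is read as like or unlike all genes.

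Myo16, a myosin of neurons, had the most higher peaks, 11 of 19. Of these, 10 were neighbours with no other peak between them, from 10165867 to 10344682 on chromosome 8 (coordinates of peaks are taken as mm39). This run held 2 peaks upstream of the gene, the promoter and 7 peaks in introns 1 and 2. Implied levels were 3.27 to 34.4 in young and 15.8 to 85.3 in old ATlo HSCs, and log2 changes ran from 1.07 to 2.69 (SE 0.25 to 0.56) in the authors' deposited table. An eleventh higher peak lay in intron 5, and the remaining 8, all but 1 of them further into the gene, were not called. In all there were 60 runs of 4 or more neighbouring calls in 1 direction, 57 of them higher. A run of 8 covered 738 kb of Cdh13, which encodes T-cadherin, from its promoter to intron 6, with log2 changes of 1.58 to 2.38 in the authors' deposited table. Another 7 lay over 2470 kb of intergenic DNA between the predicted gene Gm32810 and Cntnap5a, a neurexin-like gene (log2 1.45 to 3.17 in the authors' deposited table). A further 7 covered 185 kb between Rtp4, a receptor transporter induced by interferon, and Sst, the hormone somatostatin (log2 1.14 to 2.65 in the authors' deposited table). The members of these runs started from implied young levels of 2.26 to 19.7 normalised counts outside Myo16.

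**Figure D3:**
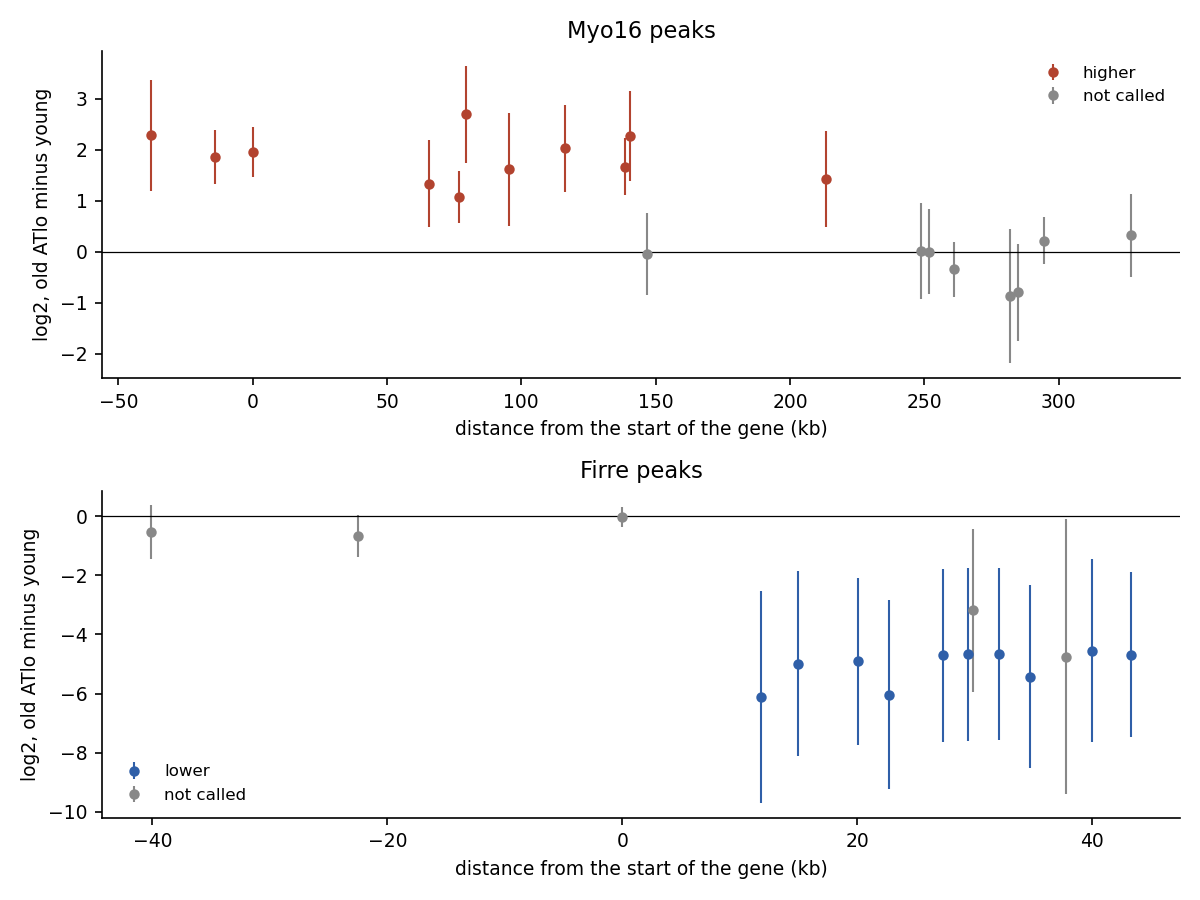
Log2 change, old ATlo minus young, of every peak at Myo16 (top, 19 peaks) and Firre (bottom, 15 peaks) against distance from the start of the gene in kb, with lines for 1.96 SE on each side. The higher Myo16 peaks run from upstream of the gene into it and stop before its later part, and the lower Firre peaks lie inside the gene while its promoter stays at -0.02.

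The other genes with the most higher peaks and no lower one were Nav2 (10 of 31), a neuron navigator, Cntnap2 (8 of 38), a neurexin-like axonal protein, and Nr2f2 (8 of 15), the nuclear receptor COUP-TFII. They were followed by Ntf3 (7 of 14), the neurotrophin NT-3, Kcnj11 (6 of 9), a subunit of the ATP-sensitive potassium channel, and Naaladl2 (6 of 7). Thsd4 (6 of 28), a matrix protein, Sox11 (6 of 10), a neural transcription factor, and Chd6 (6 of 20), a chromatin remodeller, completed the group. The strongest changes here were a distal peak of Chd6, at 2.36 in young and 23.7 in old ATlo HSCs (log2 change 3.33 and SE 0.54 by the authors' deposited table, adjusted p = 1.46e-07), and one of Cntnap2, at 2.81 and 25.3 (log2 change 3.17 and SE 0.50 by the authors' deposited table, adjusted p = 5.11e-08). Most of these peaks lay in introns or between genes. For Nr2f2, 7 of the 8 were intergenic. Some peaks lay in a neighbour: those in intron 16 and exon 26 of Abcc8 carried the name Kcnj11, and those in intron 24 of Ano2 carried Ntf3.

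The promoters with the smallest p among higher calls were Epha6, an ephrin receptor, Dpp6, a potassium channel subunit, Nkain2, Astn2, an astrotactin, and Cntn1, a contactin adhesion molecule. Pdzrn4, Tafa5, a secreted neurokine, Pxdn, a peroxidase of the matrix, Kcnj3, a potassium channel, and Cadps, a regulator of vesicle release, followed. Their implied levels were 20.4 to 57.2 in young and 94.2 to 196 in old ATlo HSCs. Every one was thus weak for a promoter in young HSCs, beside a median mean count of 122 over all promoter peaks and 27.5 over all peaks. The Epha6 promoter (chromosome 16, 60425422 to 60427017) went from 22.0 to 136, with 119 in old AThi HSCs. In the authors' deposited table it was 6.21-fold higher (log2 2.63, SE 0.22, adjusted p = 1.43e-28). The Dpp6 promoter (chromosome 5, 27108873 to 27110051) went from 24.3 to 140 (log2 change 2.52 and SE 0.22 by the authors' deposited table, adjusted p = 5.67e-27). Cadps, the last of these 10, still showed a 4.61-fold difference (log2 change 2.21 and SE 0.25 by the authors' deposited table, adjusted p = 1.21e-15).

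The promoters with the smallest p among lower calls included genes of blood cells and of general cell upkeep, and all 10 passed on both scalings. Among blood cell genes, Arhgap30, a GTPase activator of leukocytes, went from 419 to 203 normalised counts (log2 change -1.05 and SE 0.19 by the authors' deposited table, adjusted p = 2.37e-06). Cd33, an inhibitory receptor of myeloid cells, went from 125 to 62.1 (log2 change -1.01 and SE 0.21 by the authors' deposited table, adjusted p = 0.000116). Snx20, a sorting nexin that binds the P-selectin ligand PSGL-1, went from 96.0 to 32.6 (log2 change -1.56 and SE 0.29 by the authors' deposited table, adjusted p = 4.97e-06). Of the upkeep genes, Polg, the mitochondrial DNA polymerase, went from 448 to 278 (log2 change -0.69 and SE 0.14 by the authors' deposited table, adjusted p = 3.42e-05). Rnf220, a ubiquitin ligase, Haao, of tryptophan breakdown, Trim41, Mynn, Ssbp2, which binds single-stranded DNA, and Cct8 had log2 changes of -1.15 to -0.69 in the authors' deposited table. Implied young levels of the 10 were 96.0 to 529.

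Few genes had several lower peaks and no higher one, and these calls are small. Rnf220 had 4 of 19, Klrb1c, an NK cell receptor, 4 of 10, Poll, a DNA repair polymerase, 4 of 12, and Maml3, a Notch coactivator, 3 of 24. With strong promoters at 0, 3 of the 4 Klrb1c calls and 1 each of Rnf220 and Poll no longer passed, nor did 2 of the 3 of Maml3. Iscu, the scaffold on which iron-sulphur clusters are built, stood apart with 3 of 4 peaks. Its exon 4 peak (chromosome 5, 113914892 to 113915334) went from 76.6 to 7.30, and stood at 9.89 in old AThi HSCs. In the authors' deposited table that peak was 10.5-fold lower (log2 -3.39, SE 0.39, adjusted p = 1.07e-14), and it passed on both scalings. The Iscu promoter, at -0.87 in the authors' deposited table (SE 0.28, adjusted p = 0.0253), passed on the authors' scaling alone.

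Firre and Bcor, the remaining genes with the most lower calls, are on the X chromosome. Firre is a long noncoding RNA gene whose DNA is known for its differing chromatin on the active and the inactive X. Of its 12 intron and exon peaks 10 were lower, with log2 changes over all 12 of -6.11 to -3.18 in the authors' deposited table. Their summed implied level was 891 in young, 28.6 in old ATlo and 30.1 in old AThi HSCs. The Firre promoter stood at 107 and 105 (log2 change -0.02 and SE 0.17 by the authors' deposited table, adjusted p = 0.96), and its sign turned with either other scaling. SEs of the 12 peaks were 1.40 to 2.38 in the authors' deposited table, against a median of 0.26 over all called peaks. Of 16 lower calls with an SE above 1, 15 were on the X chromosome, and no higher call had such an SE. Other X-linked genes were looked up after these values were seen. The flank of Xist, the RNA that silences the inactive X, went from 62.6 to 2.49 (log2 change -4.65 and SE 1.45 by the authors' deposited table, adjusted p = 0.0206). Promoters of genes known to escape X inactivation had log2 changes of -1.04 at Kdm6a (SE 0.37, adjusted p = 0.0487), -0.91 at Eif2s3x (SE 0.31, adjusted p = 0.039) and -1.11 at Kdm5c (SE 0.40, adjusted p = 0.0582, not called) in the authors' deposited table. None of these 3 promoters passed with strong promoters at 0.

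All 11 peaks in the first 20 Mb of the Y chromosome had log2 changes above 0 and none was called. Their SEs were 0.977 to 1.80 in the authors' deposited table, against a median of 0.35 in autosomal peaks over the same range of levels. All 11 of these Y peaks thus had SEs above 0.70, the 99th percentile of those 76161 autosomal peaks, which were not matched to them peak by peak. The SEs of the Firre peaks were set against called peaks alone, and the part of level in them was not tested. Sex is not given in the sources used here, and its part in these X and Y peaks was not tested. Over the X chromosome 88 peaks were higher (3.75%) and 78 lower (3.33%), with a median log2 change of -0.15. On autosomes 6.82% were higher and 2.47% lower, with a median of -0.03. Without X and Y, a setting added after the data were seen, there were 6282 higher and 2273 lower calls, and 45.7% of promoter calls were higher. Bcor, a corepressor of BCL6, had 6 of 57 peaks lower, at log2 -1.19 to -0.53 in the authors' deposited table, none of which passed with strong promoters at 0. Stag2, a cohesin subunit also on the X chromosome, had a promoter at 167 and 96.0 (log2 change -0.80 and SE 0.21 by the authors' deposited table, adjusted p = 0.00332) that passed on both scalings.

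At some genes called peaks went both ways. Snx20 had a lower promoter and promoter flank beside a higher peak in exon 4, which went from 49.2 to 153 (log2 change 1.64 and SE 0.24 by the authors' deposited table, adjusted p = 2.49e-09). Kcnk12, a potassium channel, had a lower peak at its start (log2 -0.73, SE 0.24) and a higher one 650 bases into the gene (log2 1.56, SE 0.23) in the authors' deposited table, from 29.9 to 87.9. Dusp6, a phosphatase that switches off ERK, had 2 lower promoter peaks and 2 higher distal ones. Cyrib, a regulator of actin, had a lower promoter and higher peaks in intron 2. Lgmn, a lysosomal protease, and Ror1, a Wnt5a receptor, were the others. Of the 5 Lgmn calls 3 lay in its neighbour Rin3. Of the lower calls at these 6 genes, the Snx20 and Cyrib promoters passed on both scalings, while both Dusp6 promoter peaks and the start of Kcnk12 did not pass with strong promoters at 0.

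Each class of peak had its leading genes. The smallest p among higher calls outside promoters belonged to an intron 5 peak of Tmem132c named for Slc15a4, which went from 6.05 to 99.3. Exon 41 of Ubr4, a ubiquitin ligase, went from 31.5 to 151, intron 1 of Ank3, the ankyrin of the axon start, from 43.2 to 183, and a distal peak of Wars2, a mitochondrial tRNA synthetase, from 26.3 to 154. A 3′ UTR peak named for Kcnj11 went from 11.4 to 88.6 and a peak downstream of Fignl2 from 49.6 to 117. Lower leaders were intron 1 of Rassf4 (130 to 51.5), a distal peak of Bclaf3 (120 to 49.6), the 3′ UTR of Fam131a (105 to 42.1) and the 5′ UTR of Kansl1 (57.7 to 19.3), a subunit of the NSL acetyltransferase complex. The promoter flank of Mir7018 led the higher flanks (28.9 to 96.2) and that of Zfp316 the lower ones (84.7 to 33.3). An intron 12 peak of Csmd1 named for Mir3106 went from 71.3 to 8.53 (log2 change -3.06 and SE 0.39 by the authors' deposited table, adjusted p = 3.43e-12). All of these leading peaks were called, and the lower ones passed on both scalings.

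Lists of genes were then read against all genes, of which 21.8% had a higher and 10.1% a lower peak. Genes differ in how many peaks they carry, 4.54 on average, so the share of a list's peaks is given too, against 6.74% higher and 2.49% lower over peaks with a gene symbol. HSC ageing markers stood highest: higher peaks were at 25 of 33 genes, lower ones at 3 and neither at 6, and 22.7% of their 216 peaks were higher, with a median log2 change of 0.35. This list was drawn from published ageing signatures, and an earlier description of these data showed it. Enpp5, a membrane ectoenzyme, led with a 3′ UTR peak that went from 6.38 to 52.0 (log2 change 3.03 and SE 0.37 by the authors' deposited table, adjusted p = 1.78e-13). Cpne8, a copine, rose in intron 1 (12.1 to 60.7) and Tm4sf1, a tetraspanin-like protein, in its 5′ UTR (79.8 to 196). Lower peaks were those of Ptgs1 (54.3 to 29.5), Clu (22.0 to 8.63) and Vwf (316 to 232), the von Willebrand factor, and none of these 3 passed with strong promoters at 0.

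HSC identity genes went both ways. Higher peaks were at 14 of 33 genes and lower ones at 8, but they carried 12.9 peaks each, and 6.32% of their peaks were higher and 2.34% lower, near the share over all peaks. By position, 24 of 27 higher peaks lay outside promoters and 7 of 10 lower peaks were promoters, close to the pattern over all genes (5324 of 6365 and 1242 of 2349). Mecom, the transcription factor EVI1 of self-renewing HSCs, and Kit, the stem cell factor receptor, both had a lower promoter and a higher peak elsewhere. By the authors' deposited table, the Mecom promoter was at log2 -0.50 (SE 0.14, adjusted p = 0.00642) and the Kit promoter at -0.51 (SE 0.15, adjusted p = 0.0104), from levels of 483 to 342 and 399 to 281. Neither passed with strong promoters at 0, where 19 genes of the list had a higher and 0 a lower peak. The promoter of Thy1, a surface marker, went from 23.5 to 65.7 (log2 1.49, SE 0.28) in the authors' deposited table. The Hlf promoter (158 and 115, log2 -0.45, SE 0.19, adjusted p = 0.106) and the Procr promoter (74.8 and 72.6, log2 -0.04, SE 0.21, adjusted p = 0.941) were not called in the authors' deposited table, and with strong promoters at 0 the sign turned for Procr.

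Signalling pathways of TGF-beta, BMP and Wnt had higher peaks at 19 of 35 genes and lower ones at 6, and 10.6% of 350 peaks higher. Tcf7l1, a Wnt effector, led in intron 3 (34.3 to 124), with Wnt5a, a ligand, in a peak within Erc2 (16.3 to 55.2) and Smad3, a TGF-beta effector, at a distal peak (33.6 to 81.6). All of these rose, by the authors' deposited table, with log2 changes of 1.85 (SE 0.21), 1.76 (SE 0.30) and 1.28 (SE 0.23). Cytokine signalling and JAK-STAT genes had 8 of 34 genes higher and 9 lower, with 4.05% and 4.86% of peaks. There the promoter of Osmr, the oncostatin M receptor, went from 79.2 to 155. That of Socs2, a feedback inhibitor, went from 75.4 to 39.8, on both scalings. At Socs3 a distal peak went from 8.15 to 27.0 (log2 change 1.73 and SE 0.38 by the authors' deposited table, adjusted p = 0.000313), while the promoter stood at 431 and 490 (log2 change 0.19 and SE 0.15 by the authors' deposited table, adjusted p = 0.509) and was not called. The NF-kB list split evenly, 8 higher and 8 lower of 30 genes and 3.67% of peaks each way, and the promoter of Rel, a subunit of the factor itself, went from 517 to 325 on both scalings. AP-1 and immediate early genes had 8 of 27 genes higher and 6 lower (5.80% and 2.68% of peaks). Fos rose at its flank (155 to 284), and the Fosb and Ier5 promoters were lower on the authors' scaling alone. Interferon response genes had 6 higher and 1 lower of 33 (4.72% and 0.787% of peaks), led by a distal peak of Tap2, a peptide transporter for antigen presentation (64.9 to 144).

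Mitochondrial upkeep had higher peaks at 2 of 26 genes and lower ones at 7, and 8.43% of its 83 peaks were lower. All 7 were promoters, of 28 promoter peaks in the list, against 6.87% lower over all promoters: Polg, Mff and Dnm1l, which divide mitochondria, Esrra, a nuclear receptor of mitochondrial genes, Ssbp1, Tomm20 and Twnk. With strong promoters at 0, 1 of these 7 genes still passed. The promoter median of the list was -0.36, against -0.15 for all promoters. Strong promoters are the closer comparison for genes such as Polg. In the strongest of the 5 level groups 10.4% of promoters were lower, with a median of -0.22. In the strongest of the 3 groups used for CpG these were 16.9% and -0.28. The list was not matched for level. Higher peaks lay away from the promoters of Ppargc1a, the coactivator PGC-1-alpha (5.16 to 26.8), and Vdac1, a channel of the outer membrane (16.5 to 44.8). Glycolysis genes had 6 higher and 4 lower of 32 (6.04% and 3.36% of peaks), with higher peaks of Hk2, hexokinase 2, in intron 2 and Pfkp in intron 1 (41.2 to 114). FoxO factors and targets had 10 higher and 10 lower of 26, with 10.2 peaks a gene, and 4.15% of their peaks were higher and 4.91% lower. The promoter of Foxo3, the FoxO factor known for HSC maintenance, went from 555 to 391 (log2 change -0.51 and SE 0.14 by the authors' deposited table, adjusted p = 0.00471), on the authors' scaling alone. Gapdh, a reference gene, stood at 673 and 601 (log2 change -0.16 and SE 0.14 by the authors' deposited table, adjusted p = 0.541) and its sign turned with strong promoters at 0.

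Autophagy machinery, the process on which the cells were sorted, was near the share over all genes: 7 of 43 genes had a higher and 4 a lower peak, 34 neither, and 5.24% and 1.90% of peaks were called. Map1lc3b, a gene for LC3 itself, had a promoter at 298 in young and 219 in old ATlo HSCs that was not called (log2 change -0.44 and SE 0.17 by the authors' deposited table, adjusted p = 0.0713), with 221 in old AThi HSCs. A distal peak of Gabarapl2, an LC3 relative, went from 30.0 to 75.9, intron 4 of Optn, an autophagy receptor, from 71.0 to 119, and intron 8 of Wdfy3, which clears aggregates, from 38.9 to 74.8. A 3′ UTR peak of Atg14, a subunit of the complex that starts autophagosomes, went from 21.5 to 5.13, on both scalings. The promoter of Wipi1, a lipid-binding autophagy protein, was lower on the authors' scaling alone (597 to 398). Lysosomal genes had 6 higher and 5 lower of 32 (4.81% and 3.74% of peaks). Intron 1 of Ctsb, the protease cathepsin B, went from 46.9 to 138 (log2 change 1.55 and SE 0.18 by the authors' deposited table, adjusted p = 2.43e-14). Tfeb, which switches on lysosomal genes, had a higher distal peak (73.4 to 118) and a lower intron 1 peak (91.7 to 48.1).

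Cyclins and CDK inhibitors had higher peaks at 5 of 30 genes and lower ones at 6 (3.92% and 4.58% of peaks). The promoter of Cdkn2a, which encodes the inhibitor p16, went from 22.9 to 64.2 (log2 change 1.49 and SE 0.28 by the authors' deposited table, adjusted p = 1.12e-05), and a distal peak of Cdkn1c, the inhibitor p57, from 24.5 to 82.9. The promoter of the cyclin gene Ccnd2 went from 531 to 343 (log2 change -0.63 and SE 0.14 by the authors' deposited table, adjusted p = 0.000359), on both scalings. Chromatin regulators had 11 higher and 13 lower of 46 genes (5.18% and 4.36% of peaks). Of their higher peaks, 18 of 19 lay outside promoters, and of their lower peaks, 10 of 16 were promoters, again close to the pattern over all genes. Intron 2 of Hdac9, a histone deacetylase, went from 106 to 245, and intron 3 of Hdac4, another, from 69.5 to 30.2. With strong promoters at 0 lower genes of the chromatin list numbered 3.

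Lineage lists differed among themselves. Lymphoid genes had 6 higher and 1 lower of 26 (4.04% and 0.897% of peaks) and megakaryocyte genes 6 and 1 of 20 (5.67% and 0.709% of peaks), with the platelet receptor gene Gp1bb higher at its promoter (49.8 to 96.2). Bach2, a repressor in lymphocytes, had a distal peak that went from 6.84 to 32.4. Myeloid genes had 4 higher and 6 lower of 29 (2.92% and 3.51% of peaks), with a lower flank of Irf5, an interferon regulatory factor (38.8 to 10.3, on both scalings), and a higher distal peak of Klf4 (26.2 to 66.0). Erythroid genes had 0 higher and 2 lower of 13 (2 of 64 peaks), Zfpm1 and Ank1, neither of which passed with strong promoters at 0. Stromal and endothelial genes, which mark other cells of the marrow, had 7 higher and 3 lower of 22 (6.86% and 2.29% of peaks), and the promoter of Cxcl12, a chemokine of the niche, was higher (79.1 to 155).

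Among families matched by name, potassium channels had higher peaks at 43 of 91 genes and lower ones at 3, and 14.7% of their peaks were higher. Receptors for glutamate, GABA and acetylcholine had 25 of 68 genes higher and 1 lower, with 18.1% of peaks higher. Of their 64 promoter peaks 19 were higher, against 5.75% over all promoters. Ephrin, semaphorin, plexin, Slit and Robo guidance genes had 30 of 66 higher and 3 lower, collagens 20 and 2 of 44, cadherins 21 and 2 of 67, and Hox, Sox, Fox and T-box factors 33 and 6 of 103. Their medians were 0.05 to 0.17, above the -0.03 of all peaks, and with strong promoters at 0 they were 0.27 to 0.39, against 0.19. Cytosolic ribosomal protein genes were at the other end, with 9 higher and 23 lower of 76 (5.56% and 8.89% of peaks). The lower genes fell to 3 with strong promoters at 0. Of their 71 promoter peaks 19 were lower, against 6.87% over all promoters. Their promoters had a median of -0.39, against -0.15 for all promoters and -0.22 for those of the strongest of the 5 level groups, where 10.4% were lower. Respiratory chain and ATP synthase genes had 11 higher and 17 lower of 88, with 6.28% and 7.11% of peaks (4 lower genes with strong promoters at 0). Histone genes had 6 and 10 of 68, with 4.65% and 7.75% of peaks (1 lower gene). Olfactory and vomeronasal receptors had 13 higher and 6 lower of 182 (4.56% and 2.46% of peaks), with few peaks each. In the remaining families, from solute carriers to microRNA genes, 11.2% to 34.1% of genes had a higher and 6.60% to 15.6% a lower peak. Of their peaks 4.48% to 6.62% were higher and 1.11% to 3.82% lower. The 34.1% belonged to integrins and laminins, which carried 6.61 peaks a gene and had 6.27% of peaks higher, below the 6.74% over all peaks.

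**Figure D4:**
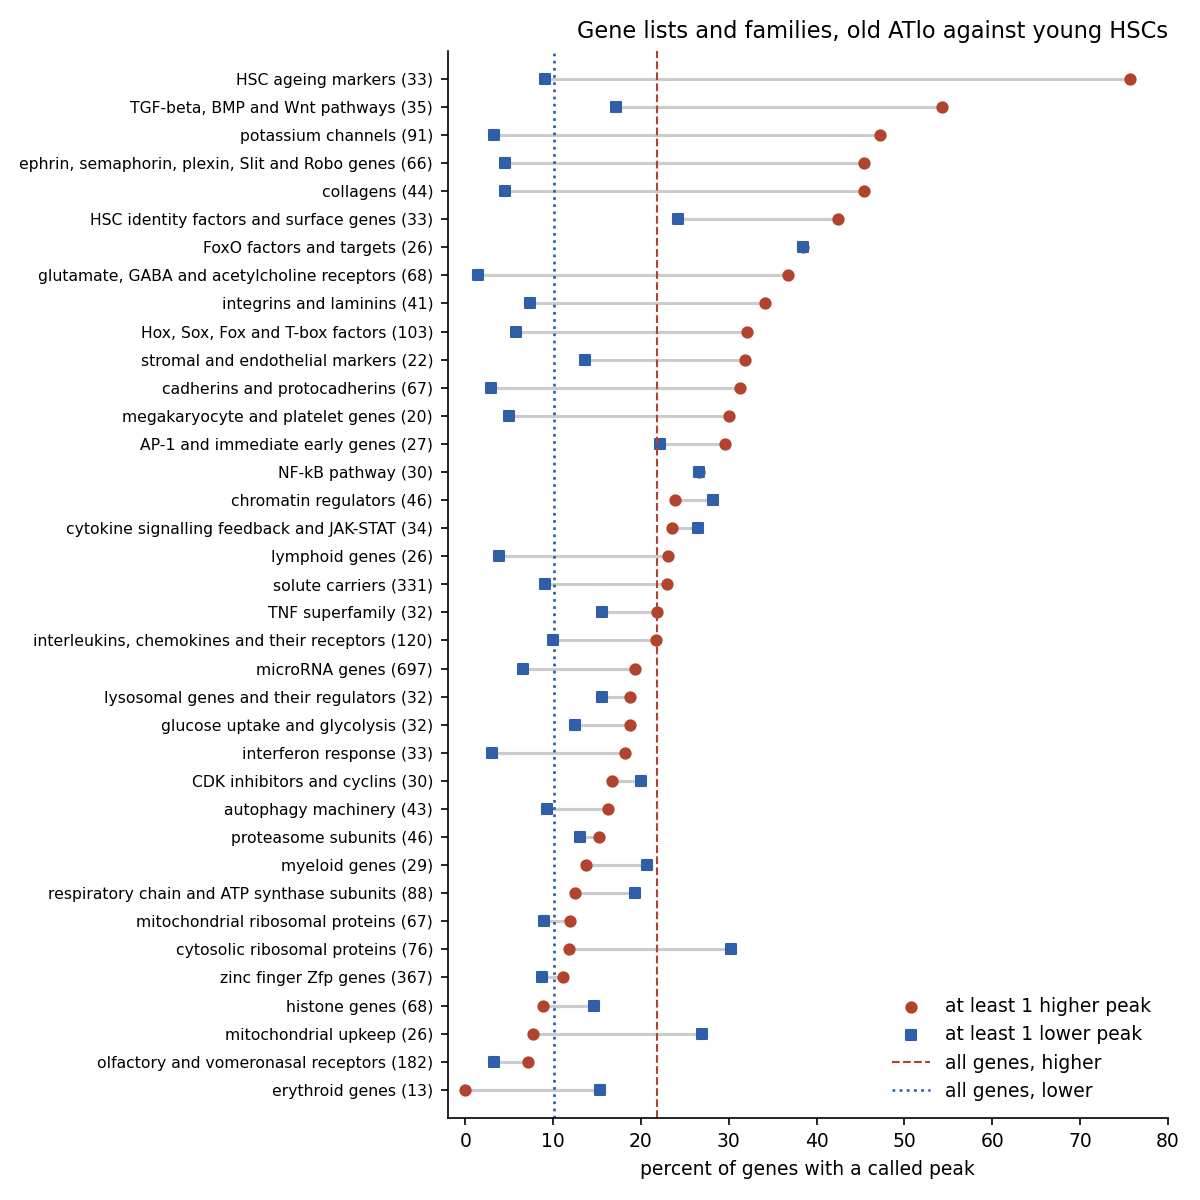
Percent of the genes of each list or family with at least 1 higher (red circle) or lower (blue square) peak in old ATlo than in young HSCs, with the number of genes in brackets and the shares over all genes, 21.8% and 10.1%, as lines. HSC ageing markers reach 75.8% higher, cytosolic ribosomal proteins 30.3% lower, and the squares of FoxO and NF-kB genes cover their circles.

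The label of the cells was checked on the promoters of marker genes. All 10 HSC markers had a promoter peak, at a summed implied level of 1572 in young and 1330 in old ATlo HSCs, a ratio of 0.846. Of these promoters 1 was called higher and 2 lower. Markers of some other cells had stronger promoter peaks where a peak was listed. The median mean count was 94.7 for HSC, 227 for erythroid and 185 for megakaryocyte markers, and 25.7 to 61.0 in the other groups. A listed promoter peak thus does not by itself set HSCs apart. Among markers of other cells, no promoter peak was listed for Cd3e, Cd3g, Cd4 and Cd8a of T cells, Cd79a and Pax5 of B cells, Elane, Mpo, Csf1r and S100a8 of myeloid cells, Alas2 and Hbb-bt of erythroid cells, Ppbp of platelets or Cdh5 of endothelium. Summed over the markers with a peak, old ATlo over young ratios were 1.13 for B cells (3 of 5), 0.947 for T cells (1 of 5), 1.06 for erythroid (3 of 5), 0.901 for neutrophil and macrophage (2 of 6), 0.972 for megakaryocyte (4 of 5) and 1.25 for stromal and endothelial markers (5 of 6), the last from 321 to 403. Without Cxcl12 the other 4 stromal and endothelial markers summed to 242 and 248, a ratio of 1.02, a setting added after the data were seen. The part of other cells in the higher stromal peaks was not tested. In bulk libraries more cells of a type and more accessibility per cell cannot be told apart.

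Old AThi HSCs, compared with the same young libraries, had a median log2 change of 1.19 at the peaks higher in old ATlo HSCs and -0.52 at those lower, beside 1.20 and -0.61 in ATlo. The young controls are shared, so these values are not independent. The peaks were also chosen on their change in ATlo, which favours larger changes there than in AThi. The difference between the fractions was tested in the authors' own comparison of old AThi with old ATlo HSCs. There 0 of 94410 peaks (0%) had an adjusted p under 0.05 in the authors' DESeq2 test, with the smallest at 0.999998, and 1683 (1.78%) had an unadjusted p under 0.05. Of the 8721 peaks called against young, 235 had such a p. These peaks were chosen with the same ATlo libraries that enter the difference between the fractions, so the 2 are not independent. The 95% interval of the difference reached a median of 0.57 log2 to each side at called peaks, and at 6247 of them it stayed within 1 log2. These intervals are not adjusted for the number of peaks. With 3 libraries each, differences larger than these widths could also go undetected. The called peaks with the smallest unadjusted p, none of which passed, were led by the promoter of Gbp10, a guanylate-binding protein of the interferon response, at 19.2 in young, 5.64 in old ATlo and 18.8 in old AThi HSCs. By the authors' deposited table AThi minus ATlo was there 1.73 in log2 with an SE of 0.55 (adjusted p = 0.999998). Intron 2 of Ccnt2, a cyclin of transcription elongation, stood at 21.4, 44.9 and 20.2 in the same order, and the Hexim2 promoter, an inhibitor of the same kinase complex, at 259, 156 and 239. Ralgps1, Nrcam, a peak in Wdr46 named for B3galt4, Malrd1 and Casp12 completed the 8, with AThi minus ATlo log2 differences of -1.27 to 2.22 in the authors' deposited table. All 8 were first called on ATlo against young, so values with ATlo apart from both other groups are favoured by the choice.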

How the data were processed

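Accessibility was measured by ATAC-seq in 5 young, 3 old ATlo and 3 old AThi libraries. Per the labels' protocols, nuclei were transposed for 30 min at 37 °C, libraries were prepared on one day and read as pairs of 150 bp. Per the submitters' processing notes, the tools were Trim Galore, cutadapt, BWA, MACS2, ChIPseeker, featureCounts and DESeq2, with no order or versions given in the sources used here. These notes name both GRCm38 and mm39, and the peak coordinates were taken as mm39 from the positions of the annotated genes.

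The authors deposited 3 tables of comparisons over the same peaks, with 0 columns of values per library. Their signal column is the authors' mean normalised count over 11 libraries. The log2 change and its standard error are log2 values as the authors deposited them, and the Wald statistic is a score of the authors. The p-value and the Benjamini-Hochberg adjusted p-value are also those the authors deposited. A peak was called at an adjusted p under 0.05. The 1831 peaks with no adjusted p were not called. Depth per library is not known from these files.

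Group levels were computed from the mean and both fold changes against young HSCs, and intervals as 1.96 SE (95%). The recomputation of adjusted p-values and of the shifted changes was tested on simulated data. Peaks were grouped by the authors' annotation, by 5 equal groups of mean level and by distance. RefSeq (GRCm38.p6) served for names and promoter sequences only. A run is at least 4 neighbouring calls of 1 direction. Python 3.11.15, numpy 2.4.6, pandas 2.3.3, scipy 1.17.1 and matplotlib 3.10.9 were used.

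The members, the 19 gene lists (580 genes) and 18 families were chosen with earlier results of these data known. Named were the 10 genes with the most higher peaks and no lower one, the 8 with the reverse and 6 with both. So were the 10 promoters in each direction with the smallest p at 1.5-fold or more, up to 3 genes per list and direction, the 4 longest runs, 8 called peaks with the smallest p between the fractions, 7 fixed promoters and the first peak of each class. Some genes that this rule names are not reported here. Predicted genes and chromosome 18 were passed over, except where a run reached to one. The X and Y genes and the 4 sequences were chosen after their values were seen, and the histone and microRNA families were narrowed after their names were matched. Values set beside these from the AThi comparison share the young libraries. The alternatives were other thresholds, adjustment over all peaks, a mean count of at least 20, other scalings, promoter peaks alone and peaks within 100 kb.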

Additional observations from a re-analysis of the deposited data

How the results depend on the processing

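No paired analysis was possible because the deposited tables hold no values per library. Leaving out a library, a replicate block and another normalisation from counts were not run for the same reason. Of 6370 higher and 2351 lower peaks, 4090 and 661 passed at an adjusted p under 0.01, 4154 and 530 were also at least 2-fold, and 11832 and 434 passed with the median strong promoter at 0. These changes follow from the settings themselves, a stricter threshold or a constant added to every log2 change. With the median of all peaks at 0, 79.8% of calls were higher. Called peaks that differed between the old fractions numbered 0 after adjustment in the authors' DESeq2 test and 235 at an unadjusted p under 0.05. The called peaks had been chosen with the same ATlo libraries. The share of promoter calls that were higher, 45.6%, was 96.2% with strong promoters at 0, 57.2% with all peaks at 0, and 62.5%, 74.0%, 87.3%, 87.6% and 29.1% from the weakest to the strongest level group. Signs turned, with strong promoters at 0, for the promoters of Procr (0.18), Gapdh (0.057) and Firre (0.20), and with all peaks at 0 for Firre (0.00919), none of them called. Of 317 named peaks, 60 no longer passed with strong promoters at 0, 8 with all peaks at 0 and 1 with adjustment over all peaks. Counts of list genes with a lower peak were smaller in all 19 lists with strong promoters at 0, and those with a higher peak were smaller in 18 lists with promoter peaks alone. Which scaling is right cannot be told from these tables, and depth per library is unknown.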
